A study of Mus musculus with 8 samples.

Results

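Genes of 12 families of chromatin modifiers and remodellers were examined in RNA sequencing of sorted microglia that lacked *Smad2* and *Smad3*. Members were the autosomal protein-coding genes whose symbol is Kdm, Kmt, Setd, Hdac, Sirt, Chd, Brd, Tet, Dnmt, Ezh or Arid followed by a digit, or Smarc followed by a letter, and that had 10 counts or more in 4 or more of the 8 libraries. Of 111 genes with such names, 94 were members, among 20153 genes that passed the same filter and 55573 that were listed. The other names were 6 genes on the sex chromosomes (*Hdac6*, *Hdac8*, *Kdm5c*, *Kdm6a*, *Smarca1* and *Kdm5d*), 8 pseudogenes, antisense or other noncoding genes, and 3 genes below the filter (*Arid3c*, *Dnmt3l* and *Kdm4d*). *Brd3os* entered by its symbol and is the opposite-strand neighbor of *Brd3*, not a bromodomain gene.

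The mutants were Smad2/3 fl/fl;Cx3cr1Cre mice and both groups were postnatal day 60 (P60), with 4 libraries each, on a C57BL6/J background. The Cre recombinase driven by *Cx3cr1* acts in microglia and also in related macrophages, so the deletion is not limited to microglia. The labels call the controls wild type, whereas the Methods describe controls as generally carrying Cre and 1 floxed allele. Cells came from Percoll gradients and were sorted on CD45 and CD11b. The labels number the libraries without naming animals, while the Methods say that replicates came from separate mice. The p-values set the group difference against the spread between these libraries.

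Chromatin modifiers add or remove chemical marks on histones and DNA: histone methyltransferases (Kmt, Setd, Ezh) and demethylases (Kdm), deacetylases (Hdac, Sirt), and the enzymes that methylate DNA (Dnmt) or oxidize that methylation (Tet). Bromodomain proteins (Brd) bind acetylated histones, and remodellers such as the SWI/SNF or BAF complex (Smarc, Arid) and the CHD proteins (Chd) use ATP to move or evict nucleosomes. *Smad2* and *Smad3* carry TGFβ signals to the nucleus, where they act on chromatin together with other transcription factors and such cofactors, and microglial identity is known to depend on TGFβ.

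Between 35639502 and 41946479 counts per library were assigned to genes. *Smad3* was at 39.5, 56.9, 49.0 and 49.2 CPM, the counts scaled to library size, in controls 1 to 4 and at 15.1, 9.61, 35.1 and 17.5 CPM in mutants 1 to 4 (log2 fold change -1.33, adjusted p = 0.0429), with mutant 3 the highest of the mutants. This call was lost when any library but mutant 3 was left out (adjusted p = 0.0565 to 0.110). *Smad2* was between 62.7 and 92.4 CPM in controls and between 42.7 and 75.9 CPM in mutants (log2 fold change -0.34, adjusted p = 0.340), and counts over the whole gene need not show the loss of floxed exons. Of 10 microglial identity markers, 9 were called lower, and their summed level was between 31401 and 47857 CPM in controls and between 5717 and 7997 CPM in mutants. Of 8 markers of border-associated macrophages 6 were called higher (53.2 to 99.2 CPM summed in controls, 1637 to 2535 CPM in mutants), and none of either list was at 0 in every library. Marker sums of oligodendrocytes (667 to 4256 CPM in controls, 1069 to 3565 CPM in mutants) and neurons (35.8 to 402 CPM and 123 to 385 CPM) were highest in replicate 1 of both groups. The summed level of 8 astrocyte markers lay at 417 to 1474 CPM in mutants and 1547 to 2578 CPM in controls, with 1 called lower and a median log2 fold change of 0.11 over the list. That of 8 lymphocyte markers lay at 114 to 200 CPM in mutants and 69.6 to 94.7 CPM in controls, with 3 called higher. Neutrophil markers summed to 560 to 2629 CPM in controls and 269 to 829 CPM in mutants, with 2 of 8 called lower. Monocyte markers (238 to 566 CPM in controls, 170 to 343 CPM in mutants) had 0 calls, endothelial markers (19.2 to 43.8 CPM and 9.76 to 32.3 CPM) had 1 of 6 tested called lower, and cell cycle genes (137 to 192 CPM and 154 to 193 CPM) had 2 of 12 called higher. *Xist* was between 99.3 and 183 CPM in controls and at most 0.561 CPM in mutants. The Y-linked *Ddx3y* was at most 0.224 CPM in controls and 9.73 to 59.7 CPM in mutants. *Eif2s3y*, also Y-linked, was at most 0.322 CPM in controls and 3.62 to 33.1 CPM in mutants. By these genes controls were female and mutants male, so genotype and sex cannot be told apart for any gene, autosomal members included. In such bulk samples fewer cells of a type and less RNA per cell cannot be told apart either, and the part of these shifts in the results was not tested.

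In mutants 10 members were lower and 0 were higher. The lower members were *Arid3b*, *Kdm3a*, *Kdm2b*, *Sirt7*, *Chd9*, *Hdac5*, *Smarcal1*, *Kmt5b*, *Brd2* and *Hdac1*, from 8 of the 12 families, and their mean levels in mutants were between 41.6% (*Arid3b*) and 67.5% (*Hdac1*) of those in controls. A call was made with edgeR's quasi-likelihood test at an adjusted p under 0.05 over all tested genes. The 10 lower calls were 10.6% of the members, against 7.97% of all tested genes called lower. Among genes with a mean of at least 10 CPM, however, 10 of 78 members (12.8%) were lower, against 14.2% of all 8574 autosomal protein-coding genes at that level. The share of lower calls was therefore near the background of equally expressed genes. Higher calls were made for 4.36% of all tested genes and for 5.81% of autosomal protein-coding genes of at least 10 CPM, and for 0 members by edgeR. At an unadjusted p under 0.05, 2 members were higher, *Hdac7* and *Setd6*, a count not set against all genes here. DESeq2 called the same 2 members higher, against 2089 of all 22931 genes that it tested.

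**Figure D1:**
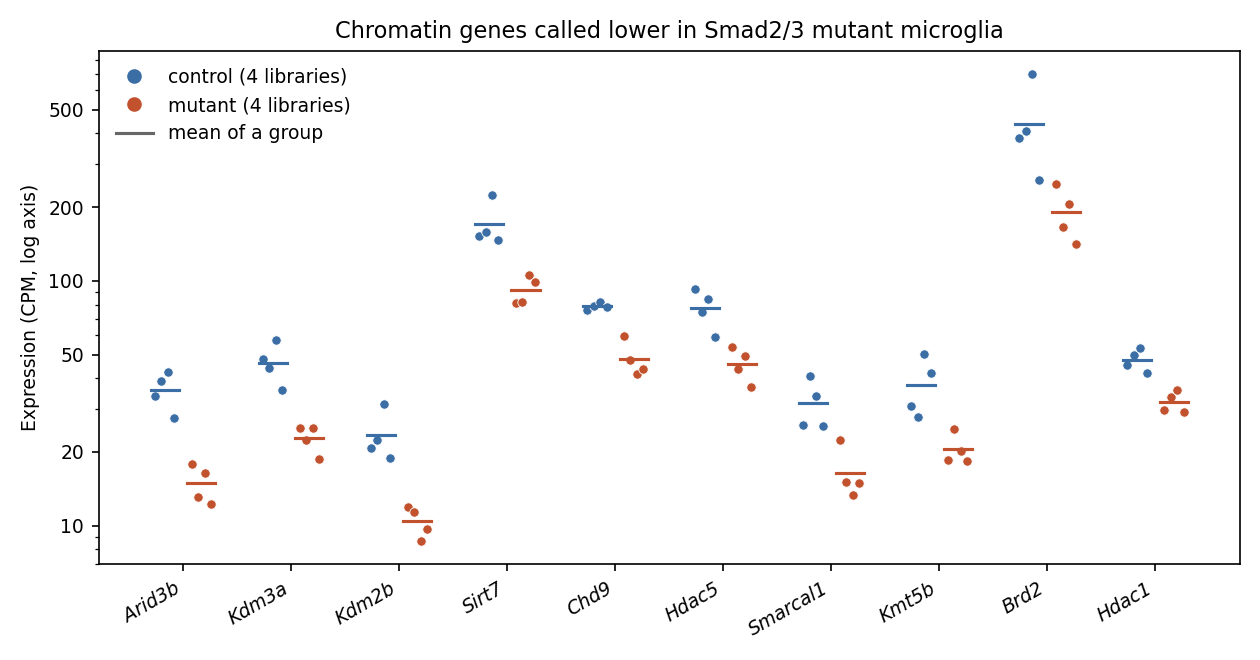
CPM (log axis) of the 10 members called lower, with 1 point per library in the order of replicates 1 to 4, controls in blue and mutants in orange, and a bar at each group mean. In each gene the highest mutant lies below the lowest control, closest in *Brd2* (249 and 258 CPM).

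Among the histone demethylases, *Kdm3a* and *Kdm2b* fell. *Kdm3a*, which removes methyl groups from lysine 9 of histone H3, was at 47.8, 44.0, 57.5 and 35.8 CPM in controls and at 25, 22.3, 25.1 and 18.7 CPM in mutants. The mutant libraries lay close together and all below the controls, with a log2 fold change of -1.02 (SE 0.19, adjusted p = 0.00855). *Kdm2b*, a demethylase that also brings a Polycomb repressive complex to CpG islands, was at 20.8, 22.4, 31.3 and 18.9 CPM in controls and at 11.9, 11.4, 8.66 and 9.69 CPM in mutants (log2 fold change -1.16, SE 0.22, adjusted p = 0.00953). Control 3 was the highest library and the groups did not overlap. Exons of *Kdm2b* overlap those of *Rnf34*, which was itself called lower (log2 fold change -0.64, adjusted p = 0.0313), and without strand such reads cannot be assigned to either gene. Of the other 12 Kdm members none was called. *Kdm6b*, which removes H3K27 methylation and had the highest level of the family in CPM, was at 67.8 ± 20.8 CPM (SD, n = 4) in controls and 52.0 ± 11.4 CPM (SD, n = 4) in mutants (log2 fold change -0.38, adjusted p = 0.355). *Kdm1b*, an H3K4 demethylase, was at 16.8, 12.1, 17.0 and 7.72 CPM in controls and at 5.40, 2.87, 9.50 and 1.05 CPM in mutants. Its log2 fold change of -1.51 was the lowest of the family, with an SE of 0.59 (adjusted p = 0.132). Control 4 lay below mutant 3, and exons of *Kdm1b* overlap those of the more abundant *Dek*. *Kdm4b*, which acts on H3K9 and H3K36, had a log2 fold change of -0.87 (SE 0.27, adjusted p = 0.0686).

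*Sirt7*, a nuclear deacetylase of the sirtuin family, was at 153, 158, 224 and 146 CPM in controls and at 81.2, 82.0, 106 and 98.6 CPM in mutants. Every mutant was below every control, with a log2 fold change of -0.89 (SE 0.18, adjusted p = 0.0135), and control 3 stood above the other controls. Of its exon bases 3.46% lie in exons of other genes, mainly *Mafg*, which has 81.6% as many counts and was itself called lower (log2 fold change -0.93, adjusted p = 0.0101), and the part of shared reads in the *Sirt7* result was not tested. The other 6 sirtuins were not called. *Sirt2*, a mostly cytoplasmic deacetylase that is abundant in oligodendrocytes, was at 175, 120, 133 and 134 CPM in controls and at 154, 132, 112 and 96.8 CPM in mutants (log2 fold change -0.19, adjusted p = 0.568), and was highest in replicate 1 of both groups, as were the oligodendrocyte markers. *Sirt5*, a mitochondrial desuccinylase, had a log2 fold change of 0.87 (SE 0.39, adjusted p = 0.185) and was likewise highest in replicate 1 of each group, at 10.5 CPM and 17.5 CPM.

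Of the 9 zinc-dependent deacetylases of the Hdac family, *Hdac5* and *Hdac1* fell. *Hdac5*, a class IIa enzyme that shuttles between nucleus and cytoplasm, was at 92.3, 74.4, 84.6 and 58.8 CPM in controls and at 53.6, 43.5, 49.4 and 36.7 CPM in mutants (log2 fold change -0.76, SE 0.19, adjusted p = 0.0310). *Hdac1*, the catalytic subunit of several co-repressor complexes, was at 45.2, 49.8, 53.1 and 42.2 CPM in controls and at 29.8, 33.6, 35.9 and 29.1 CPM in mutants (log2 fold change -0.57, SE 0.15, adjusted p = 0.0376). Neither gene overlapped between groups, although the gap was narrow in both. Of the 50-base words in *Hdac1* transcripts 35.5% also occur in other genes, mostly *Gm10093*, so its counts are uncertain. *Hdac2*, the close paralog with which *Hdac1* shares complexes, was at 64.8, 57.3, 54.4 and 46.1 CPM in controls and at 56.1, 41.6, 58.3 and 41.5 CPM in mutants (log2 fold change -0.17, SE 0.18, adjusted p = 0.582), and the log2 ratio of *Hdac1* to *Hdac2* overlapped between groups. *Hdac7* was low, at 1.47, 3.38, 0.895 and 2.23 CPM in controls and at 3.77, 6.11, 4.93 and 4.53 CPM in mutants. The mutants were all higher, but the log2 fold change of 1.27 had an SE of 0.45 and an adjusted p of 0.0980. A small stretch of its exons (0.429% of bases) overlaps *Slc48a1*, which has 3120% of its counts (log2 fold change 0.51, adjusted p = 0.102), so the *Hdac7* counts are uncertain. *Hdac9* was at 6.75, 6.27, 7.89 and 4.2 CPM in controls and at 7.45, 10.5, 21.9 and 3.15 CPM in mutants, where mutant 3 stood above the rest and the groups overlapped (adjusted p = 0.370).

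Among the histone methyltransferases *Kmt5b* fell. *Kmt5b*, which adds further methyl groups to H4K20, was at 30.7, 27.7, 50.2 and 42 CPM in controls and at 18.5, 24.9, 20.2 and 18.4 CPM in mutants (log2 fold change -0.88, SE 0.23, adjusted p = 0.0357). Mutant 2 was the nearest to the controls, and the groups did not overlap. *Kmt5c*, which catalyzes the same step, was at 25.6 to 59.0 CPM in controls and 25 to 55.5 CPM in mutants (adjusted p = 0.837). The H3K4 methyltransferases *Kmt2a* (21.9 ± 4.13 CPM in controls and 20.6 ± 3.48 CPM in mutants, SD, n = 4) and *Kmt2d* (48.8 ± 11.5 and 40.1 ± 9.06 CPM) were not called, with log2 fold changes of -0.09 (adjusted p = 0.818) and -0.28 (adjusted p = 0.448). *Kmt2e*, the most abundant Kmt gene in CPM, was at 128 ± 25.8 CPM in controls and 110 ± 7.69 CPM in mutants (adjusted p = 0.440). None of the 8 Setd genes was called, and their median log2 fold change was -0.01. *Setd3*, which methylates actin, was the highest of them at 43.3 to 62.0 CPM in controls and 26.2 to 62.2 CPM in mutants (adjusted p = 0.744). *Setd6* was at 7.52, 6.87, 7.50 and 7.26 CPM in controls and 10.2, 13.8, 11.6 and 8.45 CPM in mutants, without overlap but with an adjusted p of 0.123. The H3K27 methyltransferases of Polycomb repressive complex 2 were not called either. *Ezh1* was at 35.9, 59.9, 53.0 and 39.6 CPM in controls and 32.4, 33.6, 57.4 and 29.0 CPM in mutants (adjusted p = 0.493), and *Ezh2*, typical of dividing cells, was at 3.52 to 6.56 CPM in controls and 1.74 to 11.4 CPM in mutants (adjusted p = 0.499).

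No DNA methylation enzyme was called. *Dnmt3a*, the main de novo DNA methyltransferase here, was at 52.7, 66.4, 80.3 and 50.2 CPM in controls and at 34.0, 40.4, 49.6 and 37.9 CPM in mutants. Although the highest mutant was below the lowest control, the log2 fold change of -0.62 (SE 0.20) had an adjusted p of 0.0734. *Dnmt1*, which maintains methylation after replication, was at 20.8 ± 4.32 CPM in controls and 14.6 ± 3.96 CPM in mutants (SD, n = 4, adjusted p = 0.208). Of the dioxygenases, *Tet3* was at 35, 47.2, 51.3 and 48.9 CPM in controls and at 52.7, 63.7, 71.4 and 38.0 CPM in mutants (log2 fold change 0.31, adjusted p = 0.402), and *Tet2* was at 14.7 to 25.7 CPM and 11.9 to 21.6 CPM (adjusted p = 0.528). *Tet1* was low, at 2.42 to 7.97 CPM in controls and at 4.28, 1.60, 0 and 0.0276 CPM in mutants, and its log2 fold change of -1.85, the lowest of all members, had an SE of 1.31 (adjusted p = 0.398).

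*Brd2*, a BET protein that reads acetylated histones, had the highest level of all members, and fell. It was at 384, 409, 699 and 258 CPM in controls and at 249, 165, 206 and 141 CPM in mutants, so that control 3 stood far above the other controls and control 4 only just above mutant 1. The log2 fold change was -1.20 (SE 0.31, adjusted p = 0.0359), and without control 3 it was -0.88 (adjusted p = 0.0707). Some *Brd2* exon bases (9.78%) lie in exons of other genes, among them *H2-DMa*, which was called higher (log2 fold change 2.42, adjusted p = 0.000446). Per kilobase of exon, *Brd2* was also the highest member, at 55.9 CPM in controls and 24.3 CPM in mutants. None of the other 7 Brd members was called, and their log2 fold changes were between -0.48 and 0.18.

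Of the 12 Smarc genes only *Smarcal1* was called, and it encodes an annealing helicase that acts at stalled replication forks rather than a BAF subunit. It was at 25.9, 40.9, 33.9 and 25.6 CPM in controls and at 22.3, 15.1, 13.3 and 14.9 CPM in mutants (log2 fold change -0.95, SE 0.24, adjusted p = 0.0318), with mutant 1 nearest to the controls. The alternative BAF ATPases *Smarca4* (103 ± 8.14 CPM in controls, 82.6 ± 17.6 CPM in mutants, SD, n = 4) and *Smarca2* (73.0 ± 10.3 and 57.7 ± 6.27 CPM) had log2 fold changes of -0.32 (adjusted p = 0.264) and -0.34 (adjusted p = 0.186), and their ratio differed by 0.00 on the log2 scale between groups (SD 0.16 in controls and 0.37 in mutants). *Smarcb1*, a core BAF subunit, was at 67.6, 65.5, 82.5 and 80.2 CPM in controls and at 60.8, 58.5, 59.0 and 57.8 CPM in mutants. Its mutant libraries were tightly grouped below the controls, but the log2 fold change of -0.32 (SE 0.13) was small and not called (adjusted p = 0.148). In all, 11 of the 12 Smarc genes had a log2 fold change below 0, the exception being *Smarcd1* (0.11, adjusted p = 0.922). Most members of all families did so too (70 of 94), so this direction is not particular to Smarc genes.

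Of the ARID proteins, which bind DNA through an AT-rich interaction domain, *Arid3b* had the smallest adjusted p of all members. It was at 33.8, 39.0, 42.6 and 27.6 CPM in controls and at 17.8, 13, 16.4 and 12.2 CPM in mutants (log2 fold change -1.26, SE 0.20, adjusted p = 0.00434). The lowest control was well above the highest mutant. The BAF subunits *Arid1a* (94.0 ± 23.7 CPM in controls, 67.5 ± 17.3 CPM in mutants, SD, n = 4, adjusted p = 0.233) and *Arid1b* (22.8 ± 4.30 and 18.3 ± 3.16 CPM, adjusted p = 0.351) were not called. *Arid5a*, an RNA-binding regulator of inflammatory transcripts and the most abundant ARID gene, was at 78.0, 104, 154 and 60.6 CPM in controls and at 67.0, 62.2, 107 and 67.6 CPM in mutants, with replicate 3 highest in both groups (adjusted p = 0.451).

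Of the 10 CHD remodellers *Chd9* fell, with the smallest spread among controls of the called genes. It was at 76.2, 78.8, 81.6 and 78.2 CPM in controls and at 59.5, 47.4, 41.5 and 43.8 CPM in mutants (log2 fold change -0.71, SE 0.15, adjusted p = 0.0156). *Chd7*, mutated in CHARGE syndrome and the most abundant CHD gene here, was at 125, 133, 184 and 108 CPM in controls and at 71.4, 57.9, 138 and 70.8 CPM in mutants. With all libraries the log2 fold change was -0.70 (SE 0.29, adjusted p = 0.148), and without mutant 3 it was -1.04 (adjusted p = 0.0214). The NuRD ATPases *Chd3* and *Chd4* were not called. *Chd3* was at 61.1, 30.4, 14.0 and 24.5 CPM in controls and at 50.3, 60.9, 35 and 43.8 CPM in mutants (log2 fold change 0.55, adjusted p = 0.417), and *Chd4* was at 54.7 ± 11.2 and 48.3 ± 10.2 CPM (SD, n = 4, log2 fold change -0.18, adjusted p = 0.639). *Chd3* was highest in replicate 1 among controls, where neuronal markers were also highest.

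Not all calls were equally firm. *Arid3b*, *Kdm3a*, *Kdm2b* and *Chd9* were called in all 17 alternative analyses, and *Sirt7* in 16, the exception being the removal of both replicate 1 libraries (adjusted p = 0.0549). The other 5 were lost when single libraries were left out, with unchanged direction. With library totals *Hdac5* (adjusted p = 0.0585), *Smarcal1* (0.0636), *Kmt5b* (0.0593) and *Hdac1* (0.0789) were not called. Without the filter on low counts *Kmt5b* (adjusted p = 0.0545) and *Hdac1* (0.0728) were not called, nor was *Kmt5b* with the neural marker covariate (0.0511). Without both replicate 1 libraries *Hdac5* (adjusted p = 0.0757), *Kmt5b* (0.0843), *Brd2* (0.0595) and *Hdac1* (0.113) were not called. *Hdac5* lost its call without control 1, 2 or 3 or mutant 2, 3 or 4 (adjusted p = 0.0557 to 0.0841). *Smarcal1* lost it without control 2 or 3 or mutant 2, 3 or 4 (adjusted p = 0.0749 to 0.0952), and *Kmt5b* without control 3 or 4 or mutant 1, 3 or 4 (adjusted p = 0.0693 to 0.0915). For *Brd2* this was so without control 1, 2 or 3 or mutant 2, 3 or 4 (adjusted p = 0.0526 to 0.0985), and for *Hdac1* without any library but mutant 3 (adjusted p = 0.0570 to 0.109).

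**Figure D2:**
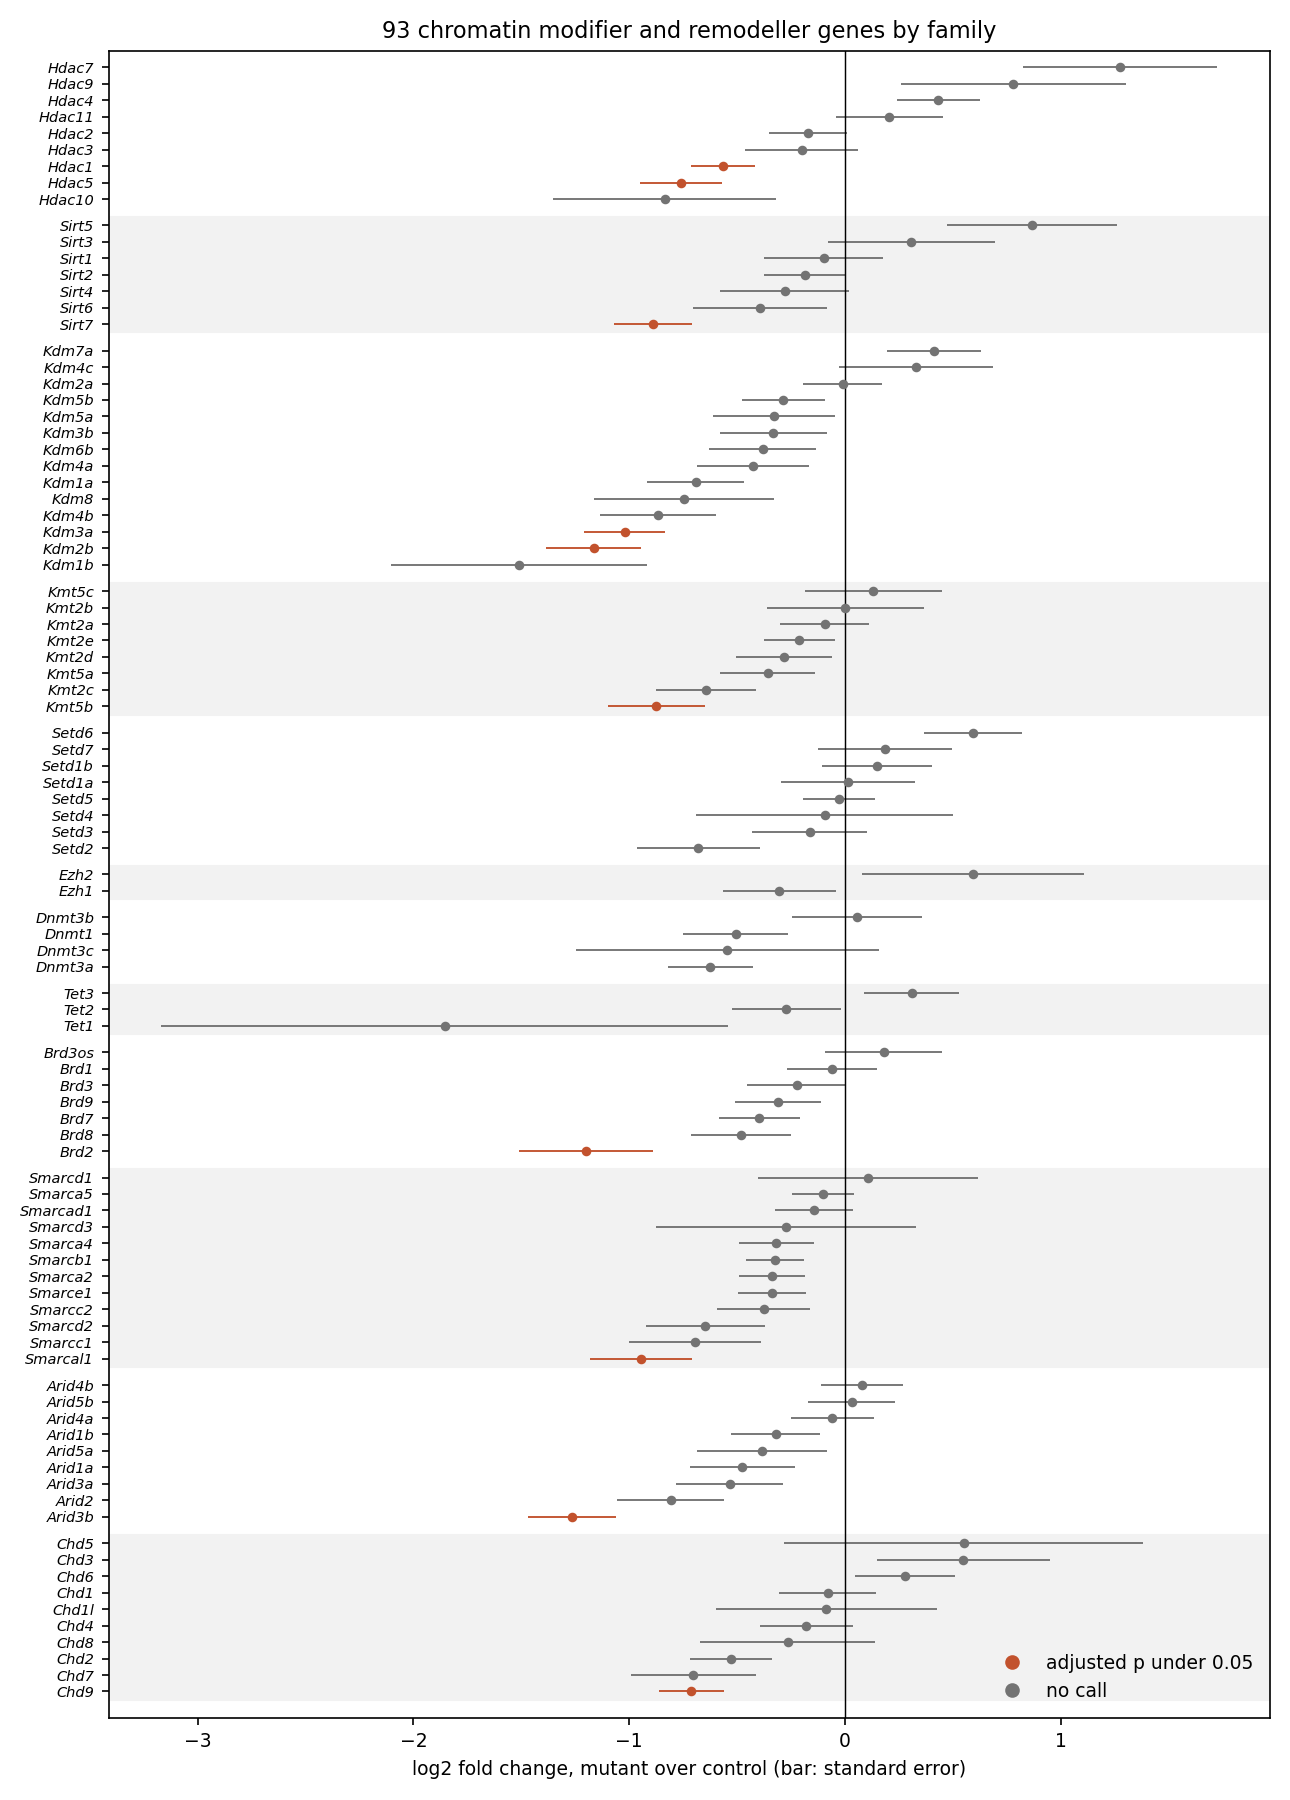
Log2 fold change of mutant over control for 93 of the 94 members (points) with its standard error (bars), grouped by family, with the 10 called members in orange and the others in gray. Most points lie left of 0, and no point right of 0 is called.

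The promoters of 72 of the 94 members were found in RefSeq (GRCm38.p6), each spanning 250 bases before to 50 bases after a RefSeq start. The RefSeq start nearest the annotated gene start was used, with no limit on the distance. The windows of *Chd9* and *Kdm2b* lie wholly inside the annotated genes. *Arid3b* and *Kdm3a* are shown as the members with the smallest adjusted p, and *Chd9* and *Brd2* as the called members with the most copies of CAGAC, the core of the SMAD-binding element. Each is printed in the direction of transcription, and capitals mark CAGAC or its reverse complement GTCTG.
Arid3b, chr9:57836730-57837029, minus strand: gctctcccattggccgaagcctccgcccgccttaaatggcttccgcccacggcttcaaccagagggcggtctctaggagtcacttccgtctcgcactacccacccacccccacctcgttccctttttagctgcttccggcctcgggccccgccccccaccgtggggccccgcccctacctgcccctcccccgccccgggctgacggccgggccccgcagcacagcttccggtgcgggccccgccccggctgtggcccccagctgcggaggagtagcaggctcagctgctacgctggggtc
Kdm3a, chr6:71632868-71633167, minus strand: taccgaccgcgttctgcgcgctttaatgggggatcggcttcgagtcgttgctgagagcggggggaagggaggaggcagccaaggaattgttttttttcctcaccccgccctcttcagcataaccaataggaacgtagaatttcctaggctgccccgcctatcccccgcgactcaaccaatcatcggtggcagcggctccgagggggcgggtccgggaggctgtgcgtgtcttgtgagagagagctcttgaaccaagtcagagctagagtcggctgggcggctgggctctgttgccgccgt
Chd9, chr8:90828585-90828884, plus strand: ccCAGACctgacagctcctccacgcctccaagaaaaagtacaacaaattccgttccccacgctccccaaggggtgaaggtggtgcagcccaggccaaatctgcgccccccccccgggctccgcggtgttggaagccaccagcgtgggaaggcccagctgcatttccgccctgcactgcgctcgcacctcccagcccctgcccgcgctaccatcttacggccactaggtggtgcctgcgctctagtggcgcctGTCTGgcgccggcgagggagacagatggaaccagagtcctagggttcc
Brd2, chr17:34122558-34122857, minus strand: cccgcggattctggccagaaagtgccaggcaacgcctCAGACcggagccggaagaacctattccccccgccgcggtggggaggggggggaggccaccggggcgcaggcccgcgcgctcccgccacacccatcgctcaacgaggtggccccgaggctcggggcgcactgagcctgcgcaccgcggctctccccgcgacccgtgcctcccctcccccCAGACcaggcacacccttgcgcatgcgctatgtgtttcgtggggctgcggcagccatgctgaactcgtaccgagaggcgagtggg
The capitals stand at 2 places each in *Chd9* and *Brd2* and at none in *Arid3b* and *Kdm3a*. *Hdac5* and *Kmt5b* each held 1 copy, and *Kdm2b*, *Sirt7* and *Smarcal1* held none. CAGAC on either strand occurred in 28 of 72 member promoters (38.9%), in 47.7% of the 10774 promoters of tested autosomal protein-coding genes and in 48.4% of all 16521 protein-coding promoters. The palindrome GTCTAGAC was in none of the 72 and in 0.206% of all promoters. GAGGAA, the core bound by PU.1, occurred in 23.6% of member promoters, in 26.6% of those of tested autosomal protein-coding genes and in 27.1% of all. For the AP-1 motif TGANTCA these shares were 4.17%, 4.96% and 6.99%. Member promoters were rich in CpG: 63 of 72 (87.5%) had a ratio of observed to expected CpG over 0.6, against 69.0% of tested autosomal protein-coding genes and 50.1% of all promoters. These are counts of letters in a fixed window, not of bound sites.

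As a group, members had modest fold changes that lay mostly below 0. Their median log2 fold change was -0.29 (quartiles -0.54 and 0.00), with 70 below and 24 above 0, and 60 within 0.5 of 0. The median was 0.01 over all tested genes and -0.08 over autosomal protein-coding genes. With a mean of at least 10 CPM, the 78 members had a median of -0.31 and the 8574 genes a median of -0.15. Scaling by library totals in place of TMM moved the median of all genes to 0.13 and that of members to -0.17, so members stayed at -0.30 relative to all genes, as with TMM. Groups did not overlap, mutants lower, in 15 members (16.0%) against 13% of all tested genes, and mutants higher in 2 members (2.13%) against 9.04%. Besides the 10 called genes, the former were *Dnmt3a*, *Kdm1a*, *Smarcb1*, *Smarca2* and *Smarce1*. These shares of all genes were not matched for expression level. For lower calls, autosomal protein-coding genes of at least 10 CPM had a share of 14.2%, against 7.97% of all genes. The 15 members therefore cannot be called an excess.

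**Figure D3:**
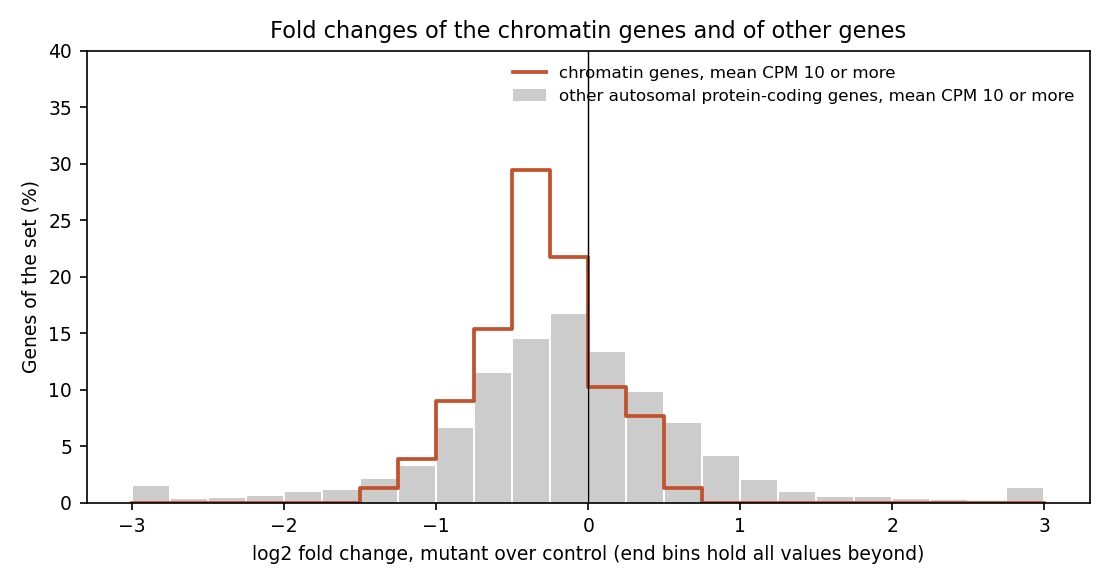
Share of genes (%) by log2 fold change of mutant over control in bins of 0.25, for the 78 members with a mean of at least 10 CPM (orange line) and for the other autosomal protein-coding genes at that level (gray bars). The members peak between -0.5 and -0.25, and none lies in the end bins, which hold all values beyond.

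By family, the median log2 fold change was lowest in Dnmt (-0.53, 4 genes) and Kdm (-0.40, 14 genes), followed by Arid (-0.38), Smarc (-0.33), Brd (-0.33), Tet (-0.27), Kmt (-0.25), Sirt (-0.19), Hdac (-0.17), Chd (-0.13) and Setd (-0.01). The median of the 2 Ezh genes was 0.14. Members are long genes, with a median exon length of 7829 bases against 4363 bases in tested autosomal protein-coding genes. Other genes of 4000 to 8000 bases had a median log2 fold change of -0.20 and those of at least 8000 bases one of -0.15, against 0.06 for shorter ones. In the same length classes members had medians of -0.29 (40 genes), -0.28 (44 genes) and -0.47 (10 genes). The spread within groups was like that of other genes of at least 10 CPM: the median SD of log2 CPM over members was 0.29 in controls and 0.34 in mutants, against 0.30 and 0.34.

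Libraries differed in their members' levels. Control 3 was the highest control for 43 of 94 members. The members' summed counts were 0.356% to 0.425% of control libraries, highest in control 3, and 0.291% to 0.337% of mutant libraries, lowest in mutant 4. These are shares of raw totals, whose make-up also differed. The 10 most abundant genes took 11.9% to 14.9% of control and 15.2% to 17.2% of mutant counts. Mitochondrial counts were 0.819% (control 3) to 4.60% of controls and 3.04% to 4.56% of mutants. The part of this in the members' shares was not tested. In 10 members, mutants 1, 2 and 4 lay below every control while mutant 3 did not, among them *Arid3a*, *Brd7*, *Chd2*, *Chd7*, *Ezh1*, *Kdm1b*, *Kmt2c*, *Setd2* and *Smarcd2*. Mutant 1 alone did so in 5 members, mutant 2 in 3 and mutant 4 in 0. The same counts were not made over all tested genes, so the pattern cannot be called particular to the members. *Smarcd2*, a BAF subunit, was at 71.7, 97.2, 97.0 and 74.8 CPM in controls and at 50.7, 31.4, 83.3 and 52.0 CPM in mutants, and *Setd2*, which trimethylates H3K36, at 25.8 to 37.2 CPM and at 16.0, 20.2, 28.1 and 10.9 CPM. *Smad3* in mutant 3, at 35.1 CPM, likewise exceeded mutants 1, 2 and 4 (9.61 to 17.5 CPM), and whether these levels are related was not tested. Microglial markers summed to 7997 CPM in mutant 3, still far below every control.

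**Figure D4:**
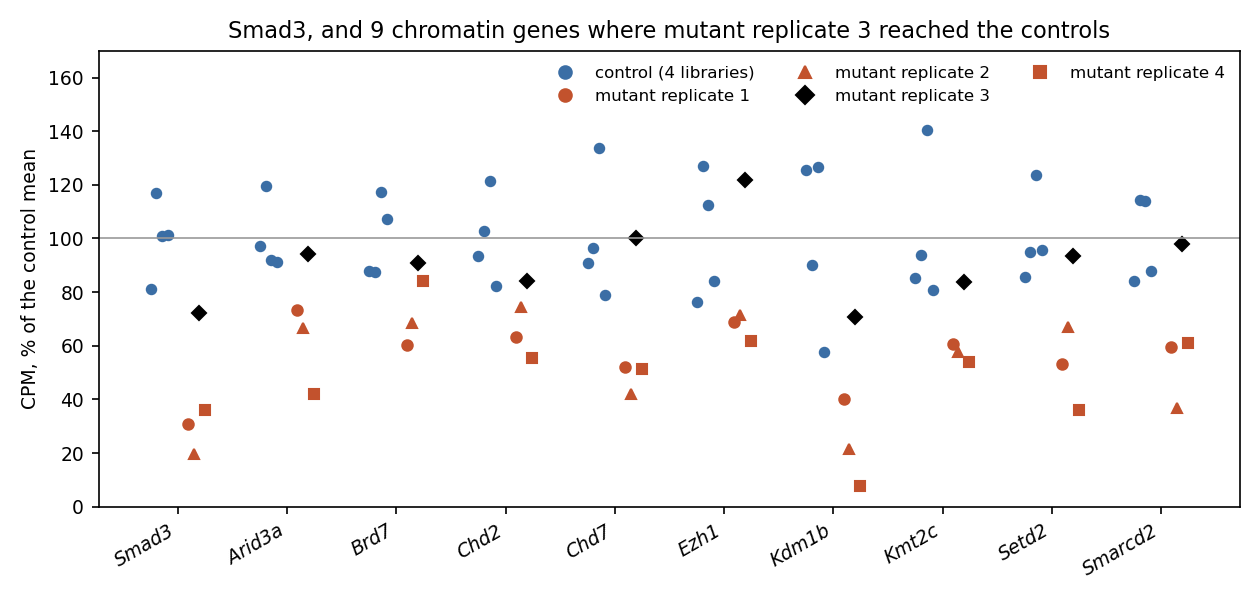
CPM as a percent of the control mean for Smad3 and 9 of the 10 members in which only mutant replicate 3 reached into the controls, with controls in blue, mutant replicates 1, 2 and 4 in orange and mutant replicate 3 as a black diamond. For Smad3 the diamond lies above the other mutants and below all controls, and for the 9 members it lies at or above the lowest control.

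Other chromatin regulators, listed by complex and outside the naming rule, also had a median log2 fold change below 0, with some genes called higher. Of 173 tested, 11 were lower (6.36%) and 4 higher (2.31%), both below the 7.97% and 4.36% of all tested genes, and the median log2 fold change was -0.23. This background was not matched for expression level. The largest rise was that of *Gadd45g*, a stress-inducible protein linked to active DNA demethylation, which was at 59.2, 61.8, 60.2 and 62.7 CPM in controls and at 236, 239, 265 and 271 CPM in mutants (log2 fold change 2.05, SE 0.12, adjusted p = 4.82e-05). Both groups were tight and far apart. *Sap30*, a subunit of the Sin3 deacetylase complex that contains HDAC1 and HDAC2, rose from 24.2 ± 3.64 to 52.4 ± 8.88 CPM (SD, n = 4, log2 fold change 1.12, adjusted p = 0.00497). In the NuRD complex, which pairs HDAC1 and HDAC2 with CHD3 or CHD4, *Mta3* rose from 13.6 ± 1.61 to 29.1 ± 6.54 CPM (log2 fold change 1.09, adjusted p = 0.0107), whereas *Gatad2a* fell from 80.2 ± 7.66 to 47.3 ± 4.64 CPM (log2 fold change -0.76, adjusted p = 0.00873) and *Mta2* was also lower (log2 fold change -0.85, adjusted p = 0.0364). *Kat6a*, an H3 acetyltransferase, fell from 41.3 ± 6.82 to 19.8 ± 4.60 CPM (log2 fold change -1.06, adjusted p = 0.0137). *Rnf2*, the catalytic ubiquitin ligase of Polycomb repressive complex 1, fell from 67.2 ± 9.88 to 33.9 ± 11.6 CPM (log2 fold change -0.99, adjusted p = 0.0342), and its call was lost without control 1, 2 or 3 or mutant 1, 2 or 4 (adjusted p = 0.0612 to 0.0946). Of 30 Polycomb genes 2 were lower, of 22 acetyltransferases and scaffolds 2, of 27 other methyltransferases and H3K4 complex subunits 1, of 17 other BAF genes 3 (including *Actb*, also a cytoskeletal gene), and of 22 other remodellers 1. Of 21 co-repressor subunits 2 were lower and 2 higher, and of 12 DNA methylation readers and cofactors 2 were higher. None of 22 insulator, cohesin, chaperone and HP1 genes was called by edgeR. At an unadjusted edgeR p under 0.05 there were 4, a count not set against all genes. They went both ways, *Nap1l4* and *Ssrp1* lower and *Nap1l1* and *Asf1b* higher.

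**Figure D5:**
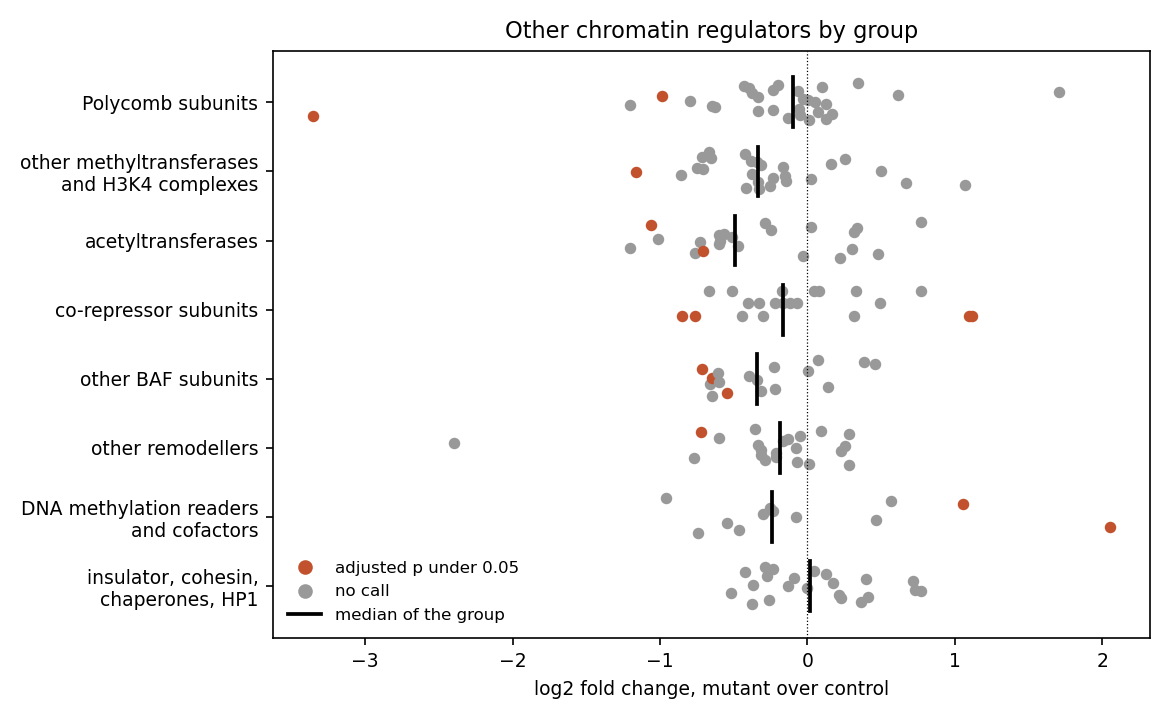
Log2 fold change of mutant over control for 173 other chromatin regulators, 1 point per gene, grouped by complex or function, with called genes in orange and group medians as black lines. The 2 orange points of the DNA methylation group and 2 of the co-repressor group are the 4 higher calls, and the farthest right is *Gadd45g*.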

How the data were processed

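RNA from sorted P60 microglia of 4 control and 4 mutant samples was analysed. The authors used Rsubread for alignment (mm10) and featureCounts for gene counting, and their deposited table holds raw counts. The labels name Nextera XT single-end libraries and the Methods polyA-selected NEBNext paired-end libraries, both unstranded, and a different accession is given in the Methods for *Smad2/3* mutants. The authors' deposited DESeq2 1.28 comparison (fold changes and p-values) was not used. Genes were matched to GENCODE M21 (55394 of 55573).

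All genes with 10 or more counts in 4 or more libraries were tested with edgeR 4.0.16 in R 4.3.3 (TMM, glmQLFit, glmQLFTest, genotype only), with Benjamini-Hochberg adjustment over 20153 genes. Fold changes are mutant over control, and their SE is the fold change divided by the square root of F. CPM are TMM-scaled. Precision was set by variation between libraries more than by depth (35639502 to 41946479 counts). The biological coefficient of variation was 0.541, a single value that does not describe the members' own spread. Their median SD of log2 CPM was 0.29 in controls and 0.34 in mutants. On simulated counts with 200 of 19356 genes changed by 2 on the log2 scale, edgeR recovered 58% and 1.69% of its 118 calls were false. The called members had smaller log2 fold changes (-1.26 to -0.57), and more genes were called in the data, so these rates need not hold for members. Tables and plots used Python 3.11.15, pandas 2.3.3, numpy 2.4.6 and matplotlib 3.10.9.

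Members and lists were chosen with earlier results of these data known. Genes named by rule were the called members, the most abundant of each family by CPM, the 3 uncalled members with the largest rise and fall, 9 paralog pairs, *Smad2*, *Smad3* and the 3 other regulators with the smallest adjusted p in each direction. Others were named after their values were seen. The counts include 1 member that is not reported singly here. Alternatives were DESeq2 1.42.0, RLE factors, library totals, no filter, 10 counts in all 8 libraries, a replicate block, autosomal genes only, a neural marker covariate and each library left out. Leaving out both replicate 1 libraries was chosen after seeing the data. Exon overlaps and 50-base words shared with other genes were checked because the counts carry no strand.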

Additional observations from a re-analysis of the deposited data

Results flagged for a closer look

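In 94 groups of 4 libraries that were examined (controls and mutants, for the genes named by rule and for the median level of the members), 5 held a library that stood apart, by the gap to its neighbor as a share of the group's range, and chance alone flags about 1 group in 20. In *Sirt7* control 3 was at 224 CPM, against 146 to 158 CPM in the other controls (gap share 0.847). Mutant 3 stood above the other mutants in *Arid5a* (107 CPM against 62.2 to 67.6 CPM, gap share 0.878), in *Chd7* (138 CPM against 57.9 to 71.4 CPM, gap share 0.831) and in *Ezh1* (57.4 CPM against 29.0 to 33.6 CPM, gap share 0.837). In *Sap30* control 1 was at 18.8 CPM, below the 25.4 to 26.5 CPM of the other controls (gap share 0.862). *Sirt7* and *Sap30* kept their calls without that library.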

How the results depend on the processing

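The direction of the members' median and the calls of *Arid3b*, *Kdm3a*, *Kdm2b* and *Chd9* held in all 17 alternatives. DESeq2 called 2 members higher in place of 0, 14 lower in place of 10, and 8 other regulators higher and 23 lower in place of 4 and 11, while over all genes it called 2089 higher and 2662 lower in place of 878 and 1607. Library totals gave 6 members and 3 other regulators lower and a member median of -0.17, with 1287 lower over all genes. No filter on low counts gave 5 other regulators lower, and leaving out both replicate 1 libraries gave 7. Leaving out 1 library gave 5 to 12 members lower and 2 to 11 other regulators lower, while lower calls over all genes fell to between 1005 and 1587. The fewest lower members, 5, were found without control 3 or mutant 4, and 6 without control 2 or mutant 2. Fewer libraries were fitted there, and the cause of the other shifts was not tested. The log2 fold change of *Kmt2a* was 0.030 with library totals and -0.185 to 0.022 without 1 library (above 0 without control 3 or mutant 1), and that of *Setd3* was -0.380 to 0.017 (above 0 without mutant 4), none called.

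Replicate numbers are shared between groups, but the labels do not say what they pair. Same-numbered libraries deviated together with correlations of 0.166, 0.018, 0.144 and 0.114, and 3 of the 4 correlated best with their own number, a hint from the data only. With the replicate number as a block 12 members were lower and 0 higher (1497 and 886 over all genes). *Chd7* (adjusted p = 0.0398), *Dnmt3a* (0.0415), *Kdm1b* (0.0358) and *Kmt2c* (0.0471) were then called, and *Kmt5b* (0.0725) and *Smarcal1* (0.0656) were not.

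Depth limits low members such as *Dnmt3c*, which had 4 to 34 counts per library.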
